A study of Mus musculus with 12 samples.

Results

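Sarcomas that arose in bone or bone marrow of p53 knockout mice were compared with stromal cells from the marrow of p53 knockout mice. The comparison used 9 of 12 mouse libraries, 6 labelled KO_Tumor and 3 labelled KO_MSC, and 18949 of the 24421 genes measured, those that were present in both deposited tables. Both groups carry the same genotype label, p53 knockout, and both were described as freshly isolated. The stromal cells (mesenchymal stem cells, MSC) were sorted as CD45-, Ter119-, CD31-, LepR+ and CD140a+ cells. The tumors were lysed in TRIzol, with no described sorting step, although their cell type label reads tumor cell. The title of the series speaks of a mesenchymal loss of p53, but the driver of the deletion, the age of the mice and whether the libraries came from separate animals are unstated in the sources used here. Each p-value therefore reflects the scatter among libraries alone, and that scatter may be technical.

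p53, encoded by Trp53, is a transcription factor that halts the cell cycle or triggers cell death after DNA damage, and mice that lack it develop sarcomas and lymphomas. LepR+ stromal cells line the sinusoids of the bone marrow, where they secrete CXCL12, stem cell factor and interleukin 7 for blood-forming cells and can give rise to bone and fat cells. Sarcomas are tumors of mesenchymal cells, and a piece of tumor also holds blood vessels, macrophages and other cells of its host.

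All values are the deposited variance-stabilized log2 values, on which 1 unit is a 2-fold difference for well-expressed genes and low genes are flattened toward a floor. The lowest value of a gene was often shared exactly by several libraries, and such floors are taken here as genes without reads. The table's title calls it batch-adjusted, and shared floors placed the libraries in 2 sets. Set 1 held the library labelled KO_MSC 1 and tumors 1 to 3, and set 2 held the libraries labelled KO_MSC 2 and 3 and tumors 4 to 6. A gene without reads has a different value in each set, so the change within each set is given beside the main results. The library labelled KO_MSC 1 stood apart, with 736 of the genes tested at the floor against 5794 and 6874 in the other libraries of its group and 3836 to 4810 in the tumors. The library labelled KO_MSC 3 had the lowest median value, 5.89, against 6.68 to 7.08 in the other 8 libraries. Correlations across genes ran from 0.797 to 0.93 between libraries labelled KO_MSC and from 0.842 to 0.949 between tumors. Between a library labelled KO_MSC and a tumor they ran from 0.66 to 0.878, so the ranges overlapped. KO_MSC 2 correlated with KO_MSC 3 at 0.865 and with tumor 3 at 0.878. KO_MSC 3 correlated with KO_MSC 1 at 0.797 and with tumor 3 at 0.863.

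Trp53, on chromosome 11 (mm10, 69580359 to 69591873, plus strand), was checked first. The libraries labelled KO_MSC 1, 2 and 3 had 10.49, 9.76 and 6.96, while tumors had 6.79 to 9.16 (median 7.68). The wild-type MSC libraries, used only for this check, had 9.96, 10.04 and 10.61. Libraries KO_MSC 1 and 2 thus held Trp53 RNA at or near the wild-type level, whereas KO_MSC 3 lay within the range of the tumors. Deleted exons cannot be told from intact ones in a value per gene, so these values do not test the knockout label. The change from KO_MSC to tumor was -1.2 ± 0.76 (moderated SE) and did not pass (adjusted p = 0.331, limma). Every direction below is relative to libraries that carry the KO_MSC label.

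The sorted libraries were also read against their gate. Lepr (14.12, 13.24 and 11.63) and Pdgfra, which encodes CD140a (9.93, 9.79 and 9.11), were high in all 3 libraries labelled KO_MSC. Ptprc, which encodes CD45, had 7.6, 5.69 and 5.69, and Pecam1, which encodes CD31, had 5.46 in each. Both genes were at the floor in KO_MSC 2 and 3.

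In the comparison of tumors with libraries labelled KO_MSC, 512 of 18948 genes were higher in tumors (2.7%) and 432 were lower (2.28%) at an adjusted p under 0.05. Each count of list members below is to be read beside these shares. Among the genes called higher, 89 differed by at least 16-fold (4 log2 units) and the median change was 2.57. Among those called lower, 51 differed by that much and the median change was -2.34. The median change over all genes was 0.04, with 52.7% of changes positive and 47.3% negative. Counts of positive or negative changes in a list are to be read beside these. With a term for the set in the fit, 413 of the higher and 376 of the lower genes were called again, 789 in all (4.16% of the genes tested). Every one of the 944 genes changed in the same direction in set 1 and in set 2. They were called from these same libraries, which largely fixes that outcome, so it is no separate support. The groups did not overlap for 505 of the higher and 424 of the lower genes, and over all genes tested the tumors lay entirely above in 1515 (8.0%) and entirely below in 1022 (5.39%).

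The number of calls depended on single libraries. Without the library labelled KO_MSC 1, 41 genes were called higher and 72 lower. All 944 changes kept their direction, which their choice from these same libraries favours. Without KO_MSC 2 the calls numbered 184 and 212, without KO_MSC 3 they numbered 704 and 923, without tumor 5 they numbered 300 and 297, and without tumor 6 they numbered 318 and 303. Quantile scaling changed the balance from 54.2% to 33.7% of calls higher (521 higher and 1024 lower).

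**Figure D1:**
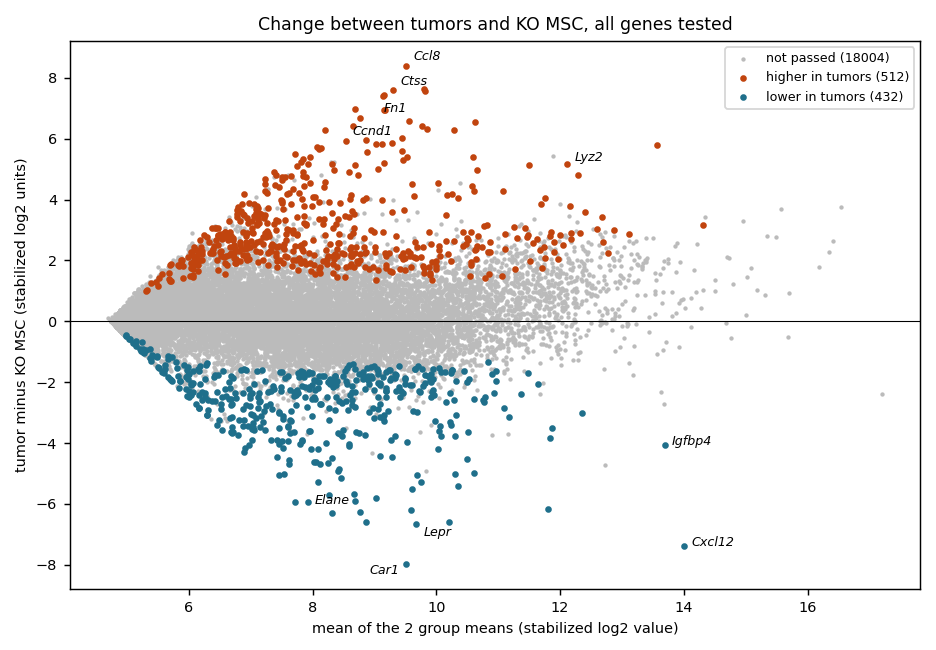
Change from the libraries labelled KO_MSC to tumors (vertical, stabilized log2 units) against the mean of both group means (horizontal, stabilized log2 value) for the 18948 genes tested. Red points are the 512 genes called higher, blue points the 432 called lower and grey points the rest. The points narrow to a wedge at low levels, where the floor limits how far a gene can move.

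**Figure D2:**
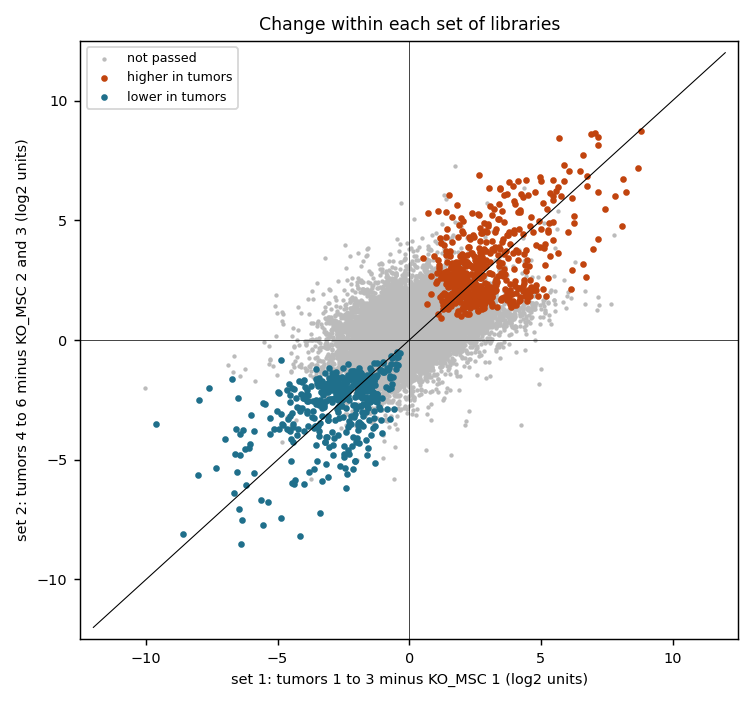
Change in set 2 (vertical, tumors 4 to 6 minus KO_MSC 2 and 3) against the change in set 1 (horizontal, tumors 1 to 3 minus KO_MSC 1), both in stabilized log2 units, 1 point a gene. All red (called higher) and blue (called lower) points lie in the quadrants where both changes have the same sign. Their choice from the same libraries favours this. Over all genes tested Pearson's r was 0.532, a description across genes that share libraries.

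Of 22 genes that define LepR+ marrow stroma, all tested, 13 fell in the tumors, 9 did not pass and none rose, while 2.28% of all genes were called lower. All 13 were also called with the set term, and 3 of the 22 fell without KO_MSC 1. The median change of the list was -2.76 (-2.62 in set 1 and -3.4 in set 2), against 0.04 for all genes, and 21 of 22 members had a negative change. The mean level of the list was 10.61 to 11.17 in the libraries labelled KO_MSC and 6.77 to 8.78 in the tumors. The lists, including this one, were drawn up with earlier results of these data known. Tumor RNA comes from a mixture, so fewer cells of a type and less RNA per cell cannot be told apart here or in the groups that follow.

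Cxcl12, the chemokine that retains blood stem cells in the marrow, was among the most abundant transcripts of the libraries labelled KO_MSC. It lay on chromosome 6 (mm10, 117168535 to 117181367, plus strand). Its values were 18.08, 17.29 and 17.69 there, and 7.77 to 12.69 in tumors (median 10.14). The groups did not overlap, and no tumor came within 4 log2 units of the lowest sorted library. The change was -7.37 ± 0.91 (adjusted p = 0.00334, limma), -6.4 in set 1 and -8.53 in set 2. Lepr, a marker of the gate itself, had 14.12, 13.24 and 11.63 against 4.1 to 8.93 (median 6.39), a change of -6.65 ± 1.0 with an adjusted p of 0.00575 that became 0.0619 without KO_MSC 1. Since LepR and CD140a selected the sorted cells, a high level of either gene there is not independent of the gate. How far the sort sets these levels was not tested. Pdgfra nevertheless overlapped between the groups (8.42 to 10.92 in tumors, change -0.22 ± 0.55, adjusted p = 0.828).

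Adipoq, which encodes the hormone adiponectin and marks stromal cells primed toward fat, had 13.7, 12.53 and 14.29 in the libraries labelled KO_MSC, whereas tumors had 4.05 to 8.94 (median 6.7). The groups were far apart, with a change of -6.6 ± 0.92 (adjusted p = 0.00436, limma). Kitl, which encodes stem cell factor, changed by -3.17 ± 0.65 (adjusted p = 0.0213), and Il7, the growth factor of early lymphocytes, by -3.25 ± 0.57 (0.0104). Vcam1, an adhesion molecule that holds blood cells in the marrow, had 14.16, 13.46 and 13.25 against 8.37 to 10.83 (change -3.52 ± 0.55, adjusted p = 0.00674). Hp, which encodes the hemoglobin scavenger haptoglobin, fell by 6.17 ± 0.94 (0.00611), and Esm1, a secreted proteoglycan, fell by 5.0 ± 0.71 (0.00482).

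The remaining stromal genes that fell were Ebf3, a transcription factor of marrow stroma (-2.2), Gas6, the ligand of the TAM receptors (-3.84), the insulin-like growth factor binding protein gene Igfbp5 (-3.61, with groups that overlapped), the CSF1 receptor ligand gene Il34 (-3.95) and Bmp4 (-2.31). Among the 9 that did not pass were Ebf1 (-0.75), Pdgfrb (-2.16), Foxc1 (-2.34), Csf1 (-0.53), Cebpa (-1.62) and the limb mesenchyme factor Prrx1, the single member with a positive change (1.17 ± 0.55, adjusted p = 0.199). The 3 that fell without KO_MSC 1 were Cxcl12, Adipoq and Esm1. Without KO_MSC 3, 11 fell. Vcam1, Hp, Kitl and Il7 had adjusted p values of 0.0592, 0.0549, 0.115 and 0.0798 without KO_MSC 1.

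Among genes of the fat lineage, 2 of 16 fell (2.28% of all genes were called lower) and none rose, with a median change near 0. They were Lpl, the lipoprotein lipase (-3.62 ± 0.87, adjusted p = 0.0376), and Klf15, a transcription factor of fat cells (-2.74 ± 0.57, 0.0221). Neither passed without KO_MSC 1 (0.211 and 0.102). The growth factor binding protein gene Igfbp4, one of the strongest transcripts of the sorted cells at 15.28, 15.99 and 15.91, stood at 9.52 to 13.11 in tumors and changed by -4.07 ± 0.87 (0.024, and 0.104 without KO_MSC 1).

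**Figure D3:**
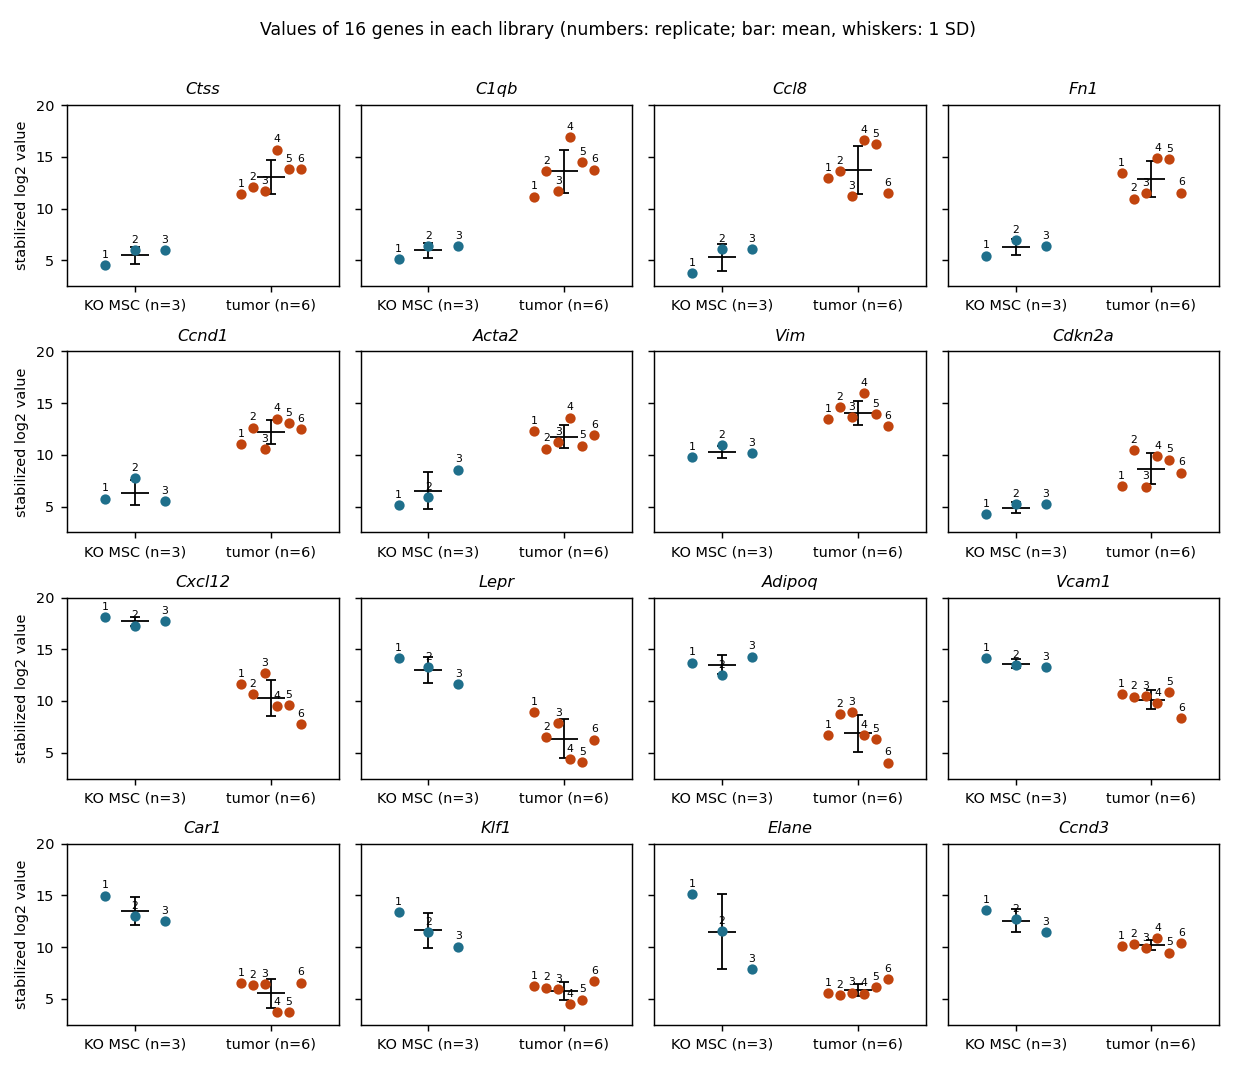
Stabilized log2 value (vertical) of 16 genes in the 3 libraries labelled KO_MSC (blue, 1 to 3) and 6 tumors (red, 1 to 6). Each point is a library with its replicate number, the bar is the group mean and the whiskers are 1 SD. The 16 genes were picked for display after their values were seen, and the groups do not overlap in any of them.

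The libraries labelled KO_MSC also carried RNA of red cell precursors. Of 18 erythroid genes, 7 fell in tumors and none rose, all 7 also with the set term, while 2.28% of all genes were called lower. The list had a median change of -3.15, and its mean was 12.47, 11.53 and 10.25 in KO_MSC 1, 2 and 3 against 7.28 to 10.38 in the tumors. Car1, the carbonic anhydrase of immature red cells, had the largest decrease of any named gene. It stood at 14.99, 12.98 and 12.49 against 3.7 to 6.57 (median 6.36), with tumors 4 and 5 at the floor, and changed by -7.96 ± 0.83 (adjusted p = 0.00296). Klf1 and Gata1, the transcription factors that drive red cell formation, changed by -5.89 ± 0.71 (0.00334) and -5.28 ± 0.61 (0.00296). In both genes every tumor lay below every library labelled KO_MSC.

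Epor, the erythropoietin receptor, had 11.86, 9.93 and 9.82 against 6.75 to 7.05, a change of -3.65 ± 0.46 (0.00347). The 6 tumors lay close together, below all 3 sorted libraries. Rhag, Ermap and Slc4a1, which encode red cell membrane proteins, changed by -5.7, -4.68 and -4.62. Without KO_MSC 1, 6 of the 7 passed, all but Slc4a1 (adjusted p = 0.153). The globin genes did not follow: Hba-a1 had 13.48, 14.14 and 13.23 against 10.5 to 17.21 (change 0.6 ± 1.27, adjusted p = 0.796), and Hbb-b1 changed by -0.69 ± 1.95 (0.853). The globin copies are nearly identical, so reads could be split between them in ways the sources used here do not describe.

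Of 15 neutrophil and granule genes, 6 fell and none rose, while 2.28% of all genes were called lower. Of the 6, 3 were also called with the set term (Elane, Prtn3 and Camp). The list's median change was -4.51 in set 1 and -1.32 in set 2. Its mean level was 10.68 in KO_MSC 1, 8.33 in KO_MSC 2 and 7.47 in KO_MSC 3, against 5.4 to 7.52 in the tumors. Elane, the neutrophil elastase made by early precursors, had 15.11, 11.54 and 7.85 against 5.33 to 6.88 (change -5.66 ± 1.15, adjusted p = 0.0202, and 0.0876 without KO_MSC 1). Mpo, the myeloperoxidase of the same stage, had 16.69, 12.2 and 7.96 against 5.47 to 9.64 and did not pass (-4.91 ± 1.55, 0.0866). Without KO_MSC 1 only Prtn3 of the 15 passed (0.0486). The share of blood cells in these sorted libraries was not measured, and its part in the other results was not tested.

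Progenitor and megakaryocyte genes moved both ways, 2 up and 2 down of 14, while 2.7% of all genes were called higher and 2.28% lower. Tal1 and Gp5, a blood stem cell factor and a platelet membrane protein, fell by 2.76 ± 0.47 (adjusted p = 0.00933) and 2.61 ± 0.36 (0.00436). Cd34, which is also a marker of endothelium, rose by 4.98 ± 0.82 (0.00882), and Pf4, a platelet chemokine that some macrophages express as well, rose by 5.97 ± 1.03 (0.0098). Of these, Gp5 alone passed without KO_MSC 1 (0.0252), where Tal1, Cd34 and Pf4 had 0.0694, 0.0595 and 0.0944. B lineage markers had no member that passed (0 of 11, median change -0.13).

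Macrophage markers had the highest median change of the 39 lists. Of 20 markers, 16 rose and none fell, all 16 also with the set term, and all 20 changes were positive. Over all genes 2.7% were called higher and 52.7% had a positive change. The median change was 4.98 (4.34 in set 1 and 5.64 in set 2). The mean level of the list was 5.8 to 6.77 in the libraries labelled KO_MSC and 10.18 to 13.19 in the tumors, highest in tumor 4. Without KO_MSC 1, 9 of the 20 rose, and the median change was 4.67. How far the absence of a described sort for tumors accounts for this difference was not tested.

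Ctss, which encodes the lysosomal protease cathepsin S of antigen-presenting cells, lay on chromosome 3 (mm10, 95526786 to 95556403, plus strand). It had 4.57, 5.97 and 5.97 in the libraries labelled KO_MSC, at the floor in KO_MSC 2 and 3, and 11.42 to 15.71 in tumors (median 12.93). Every tumor was at least 5 log2 units above every sorted library. The change was 7.59 ± 0.85 (adjusted p = 0.00296, limma), 7.17 in set 1 and 8.47 in set 2. The genes of the C1q complex, the part of complement that recognizes antibody and dying cells, lie side by side on chromosome 4 and moved together. C1qb had 5.13, 6.4 and 6.4 against 11.16 to 16.9 (median 13.7), a change of 7.63 ± 1.03 (0.00436), while C1qc changed by 7.56 ± 0.99 (0.00373) and C1qa by 6.95 ± 1.0 (0.0049). In all 3 C1q genes tumor 4 was the highest library.

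Other members covered the range of macrophage functions. Ms4a7, a membrane protein of tissue macrophages, rose by 7.39 ± 0.82 (adjusted p = 0.00296). Aif1, an actin-binding protein of macrophages and microglia, rose by 6.67 ± 0.77 (0.00296), and the signalling adaptor gene Tyrobp by 6.54 ± 0.81 (0.00334). The endosomal protein gene Cd68 had 4.67, 7.77 and 6.86 against 10.48 to 14.43 and changed by 6.01. Csf1r, the receptor on which macrophages depend, had 5.15, 6.79 and 6.0 against 9.19 to 13.88 and changed by 4.4 ± 0.91 (0.0221, and 0.152 without KO_MSC 1). Its ligand genes Csf1 and Il34 did not follow it, since Csf1 did not pass and Il34 fell. The members that did not pass were Cd14 (1.17), Cd163 (1.73), Mertk (0.6) and Laptm5 (2.73).

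Beyond the list, Wfdc17, a secreted protein of activated macrophages, had 3.41, 6.81 and 6.1 against 10.38 to 15.32 and changed by 7.42 ± 1.01 (adjusted p = 0.00436). Ifi27l2a, an interferon-induced gene, had 4.86, 5.35 and 6.85 against 10.83 to 16.3 and changed by 6.95 ± 0.99 (0.00475, and 0.0501 without KO_MSC 1). Both were among the 12 named genes with the largest increases, 7 of which are on the list of macrophage markers. The interferon response list itself had 2 of 17 members that rose, Zbp1 (2.16) and Oas1a (2.44), neither of which passed without KO_MSC 1 (0.183 and 0.154). Its median change was 0.92, with 16 positive changes, and 2.7% of all genes were called higher.

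Genes of antigen presentation by MHC class II rose in 5 of 9 cases, while 2.7% of all genes were called higher. None was lower, and the median change was 3.44. H2-Aa, a chain of the class II molecule, had 5.68, 6.04 and 8.34 against 10.81 to 16.33 (median 12.66) and changed by 6.33 ± 1.09 (adjusted p = 0.00992). Cd74, the invariant chain, ranged from 10.58 to 18.94 among the tumors against 5.99, 6.89 and 6.83, a change of 6.41 ± 1.45 (0.0297). The highest tumor was tumor 4 for both genes. H2-Ab1, H2-Eb1 and H2-DMb1 changed by 4.97, 5.84 and 3.44. Ciita, the master regulator of these genes, had a change of 1.23 and did not pass (0.184). None of the 9 passed without KO_MSC 1, where H2-Aa had 0.0948 and Cd74 had 0.166.

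Chemokines and their receptors changed in both directions, 9 up and 2 down of 25, all 11 also with the set term. Over all genes 2.7% were called higher and 2.28% lower. Ccl8, a monocyte attractant, had the largest increase of any named gene: 3.8, 6.07 and 6.07 against 11.24 to 16.64 (median 13.29), a change of 8.4 ± 1.18 (adjusted p = 0.00447), 8.81 in set 1 and 8.74 in set 2. It lies on chromosome 11 (mm10, 82115185 to 82116799, plus strand) near Ccl12. Ccl12 was at the floor in all 3 libraries labelled KO_MSC (3.44, 6.06 and 6.06) and had 9.98 to 15.35 in tumors, so no fold is given. Ccl4, Ccl5, Ccl6 and Ccl7 changed by 3.9, 4.28, 5.29 and 4.51, and the receptor gene Ccr1 by 4.01. Cxcl16, a membrane-bound chemokine, rose by 2.24. Only Ccl8 and Ccl12 passed without KO_MSC 1 (0.0497 and 0.0486).

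The chemokine genes that fell were Cxcl14 and Cx3cl1. Cxcl14 had 12.04, 11.95 and 12.38 against 5.4 to 9.55 and changed by -4.18 ± 0.75 (adjusted p = 0.0117). Cx3cl1, the ligand of the macrophage receptor gene Cx3cr1, fell by 3.58 ± 0.79 (0.0264), while Cx3cr1 itself rose by 4.2 ± 0.71 (0.00913). Cxcr4, the receptor of CXCL12, had 6.55, 6.66 and 6.96 against 5.93 to 6.95 and a change of -0.34 ± 0.38 (0.595). Among 14 complement genes outside C1q, the macrophage genes Cfp and C3ar1 rose and C3 fell (-2.93). Of all genes, 2.7% were called higher and 2.28% lower. C3ar1 had 5.39, 5.01 and 5.01 against 8.0 to 12.09. C3 was not called with the set term, and none of the 14 complement genes passed without KO_MSC 1.

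Markers of T and NK cells stood at lower levels. Of 16, Cd3d and Cd3g, subunits of CD3, rose (2.59 and 2.31), none fell and all 16 changes were positive. For comparison, 2.7% of all genes were called higher and 52.7% had a positive change. Cd3d had 5.06, 5.02 and 5.02 against 6.35 to 8.78 (adjusted p = 0.0231). Cd8a was at the floor in all libraries labelled KO_MSC and above it in all tumors, at 5.33 to 7.74, and did not pass (0.0835). Checkpoint genes had 2 of 13 that rose: Cd86, a costimulator on antigen-presenting cells (2.85), and Sirpa, the receptor of myeloid cells for CD47 (2.86), which was not called with the set term. Neither list had a member that passed without KO_MSC 1.

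Short promoter sequences are shown for 3 genes that changed strongly in opposite directions, because each holds a motif of a blood lineage factor. PU.1 is a master transcription factor of macrophages and GATA1 of red cells. The promoters span 250 bases before to 50 after the start (RefSeq, GRCm38.p6), printed 5′ to 3′ on the gene's strand. Capitals mark the match. In Ctss and C1qc it is the reverse complement of the PU.1 motif GAGGAAGT, which starts 2 and 195 bases before the start, and in Epor the reverse complement of the GATA motif AGATAAG, 55 bases before the start. The genes and motifs were chosen after the values were seen.
Ctss, chr3:95526536-95526835, plus strand: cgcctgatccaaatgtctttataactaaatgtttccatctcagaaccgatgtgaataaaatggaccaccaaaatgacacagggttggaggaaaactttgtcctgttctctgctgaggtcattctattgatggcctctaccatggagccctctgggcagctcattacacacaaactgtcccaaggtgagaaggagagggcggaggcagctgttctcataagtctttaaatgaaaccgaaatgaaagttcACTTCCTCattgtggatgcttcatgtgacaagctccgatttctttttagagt
C1qc, chr4:136892865-136893164, minus strand: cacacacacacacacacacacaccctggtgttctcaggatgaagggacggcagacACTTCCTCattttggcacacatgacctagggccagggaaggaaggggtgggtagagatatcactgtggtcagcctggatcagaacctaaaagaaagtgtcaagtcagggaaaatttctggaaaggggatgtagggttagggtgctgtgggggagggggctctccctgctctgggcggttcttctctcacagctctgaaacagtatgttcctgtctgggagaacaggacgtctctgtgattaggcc
Epor, chr9:21963527-21963826, minus strand: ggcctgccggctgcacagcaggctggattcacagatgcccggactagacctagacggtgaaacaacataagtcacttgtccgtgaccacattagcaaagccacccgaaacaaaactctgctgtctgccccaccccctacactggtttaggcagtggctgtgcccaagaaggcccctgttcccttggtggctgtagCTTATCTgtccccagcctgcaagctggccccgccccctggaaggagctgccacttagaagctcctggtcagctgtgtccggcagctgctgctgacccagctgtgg

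A promoter was listed for 13755 of the 18948 genes tested, and both strands were searched. For the 2466 genes with several listed promoters, only the first was used. The PU.1 motif was present in 3.11% of these promoters, in 6.17% of the 373 listed for genes that rose and in 3.77% of the 318 listed for genes that fell. The GATA motif was present in 2.12%, 2.14% and 4.09%. Among macrophage markers that rose, the PU.1 motif was found in 2 of 12 promoters, and among erythroid genes that fell the GATA motif was found in 1 of 5. The GATA motif was also found in 1 of the 12 macrophage promoters (Mpeg1). The palindromic motif of the EBF family was found in 0 of 9 promoters of stromal identity genes that fell, in 1 of the 5 erythroid promoters (Gata1) and in 1.0% of all. A match of letters is a description of these windows and does not show binding.

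Of 14 endothelial genes, 6 rose and none fell (2.7% of all genes were called higher), and 5 of the 6 were also called with the set term. The list had a median change of 1.69 and means of 5.63 to 5.99 in the libraries labelled KO_MSC against 6.86 to 9.05 in tumors. Cdh5, the cadherin of endothelial junctions, had 4.39, 5.6 and 5.6 against 7.24 to 8.84 and changed by 2.93 ± 0.49 (adjusted p = 0.00913). The junction genes Esam and Cldn5 rose by 3.8 and 3.05, the VEGF receptor gene Kdr by 2.39 and the phosphatase gene Ptprb by 1.66. The sialomucin gene Emcn rose by 2.39 but was not called with the set term. CD31+ cells were removed from the sorted libraries only, and none of the 14 passed without KO_MSC 1.

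Of 12 smooth muscle and pericyte genes, 3 rose, while 2.7% of all genes were called higher. Acta2, the smooth muscle actin that myofibroblasts also make, had 5.11, 5.95 and 8.58 against 10.61 to 13.6 (median 11.57). All 6 tumors were above the 3 sorted libraries, and the change was 5.21 ± 0.79 (adjusted p = 0.00611, and 0.0592 without KO_MSC 1). The pericyte adhesion gene Mcam rose by 2.87 ± 0.67 (0.0321). Actg2 was at the floor in all libraries labelled KO_MSC and at 5.67 to 6.8 in tumors. Myh11, the myosin of mature smooth muscle, did not pass (-0.19 ± 0.31, 0.733). None of the 12 passed without KO_MSC 1, where Mcam had 0.166 and Actg2 had 0.137.

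A few general mesenchymal genes were higher in the tumors. Vim, the intermediate filament of mesenchymal cells, had 9.76, 10.91 and 10.13 against 12.75 to 15.97 (median 13.76) and changed by 3.78 ± 0.68 (adjusted p = 0.012). Twist1, a transcription factor of embryonic mesenchyme, rose by 1.85 ± 0.41 (0.0285), with 5.91, 6.98 and 6.2 against 7.5 to 8.66. Tcf4, a basic helix-loop-helix factor, rose by 2.07 but was not called with the set term. In all, 3 of 12 such genes rose and none fell. Among 21 Hox and limb position genes, Hoxb7 alone rose, a count near the share of all genes called higher (2.7%). It was at the floor in the 3 libraries labelled KO_MSC (4.56, 4.94 and 4.94) and had 6.25 to 8.89 in tumors (adjusted p = 0.0174). Epithelial markers had no member that passed (0 of 6, median change 0.03). None of the genes that rose here passed without KO_MSC 1, where Vim had 0.0929.

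The matrix differed by a few strong genes. Fn1, which encodes fibronectin, lay on chromosome 1 (mm10, 71585520 to 71653200, minus strand) and had 5.47, 6.99 and 6.37 in the libraries labelled KO_MSC. In tumors it had 10.97 to 14.88 (median 12.48), well above all sorted libraries. The change was 6.57 ± 0.89 (adjusted p = 0.00436), 6.48 in set 1 and 7.05 in set 2. Like the macrophage genes above, it was among the 12 named genes with the largest increases. Of 22 fibronectin, matricellular and proteoglycan genes, 4 rose and none fell (median change 1.06), while 2.7% of all genes were called higher. The others were Postn, a matricellular protein of healing tissue (5.56 ± 1.32, 0.0356), the microfibril gene Mfap5 (5.14 ± 0.76, 0.00518) and the collagen-binding proteoglycan gene Aspn (3.21 ± 0.54, 0.00913). Without KO_MSC 1, Fn1 alone passed (0.0463).

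Of 20 collagen genes 1 rose, a count near the share of all genes called higher (2.7%). Col6a3 had 6.73, 8.37 and 7.84 against 9.56 to 12.67 and changed by 3.67 ± 0.64 (adjusted p = 0.0101, and 0.0929 without KO_MSC 1). The median change of the list was 1.35 and 17 of 20 changes were positive, against 52.7% of all genes. Col1a1, the main collagen of bone and scar, had 13.13, 15.22 and 9.46 against 10.52 to 18.41. Its groups overlapped widely and it did not pass (2.57 ± 1.76, 0.374). Col3a1 had a change of 3.2 ± 1.15 (0.126).

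Among 22 matrix proteases, inhibitors and cross-linkers, 2 rose, while 2.7% of all genes were called higher. Timp1, an inhibitor of matrix metalloproteinases, had 6.49, 10.19 and 10.12 against a narrow 12.81 to 13.76 in tumors (median 13.13) and changed by 4.27 ± 0.73 (adjusted p = 0.00933, and 0.0252 without KO_MSC 1). Plaur, the urokinase receptor, rose by 3.0 ± 0.78 (0.0491) and was not called with the set term, nor without KO_MSC 1 (0.155). The protease genes Mmp13 and Mmp14 had changes of -1.03 and 1.77 and did not pass. Of 16 integrin genes, Itga6 (2.51) and Itgb3 (2.49) rose, of which Itgb3 was called neither with the set term nor without KO_MSC 1 (0.225).

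**Figure D4:**
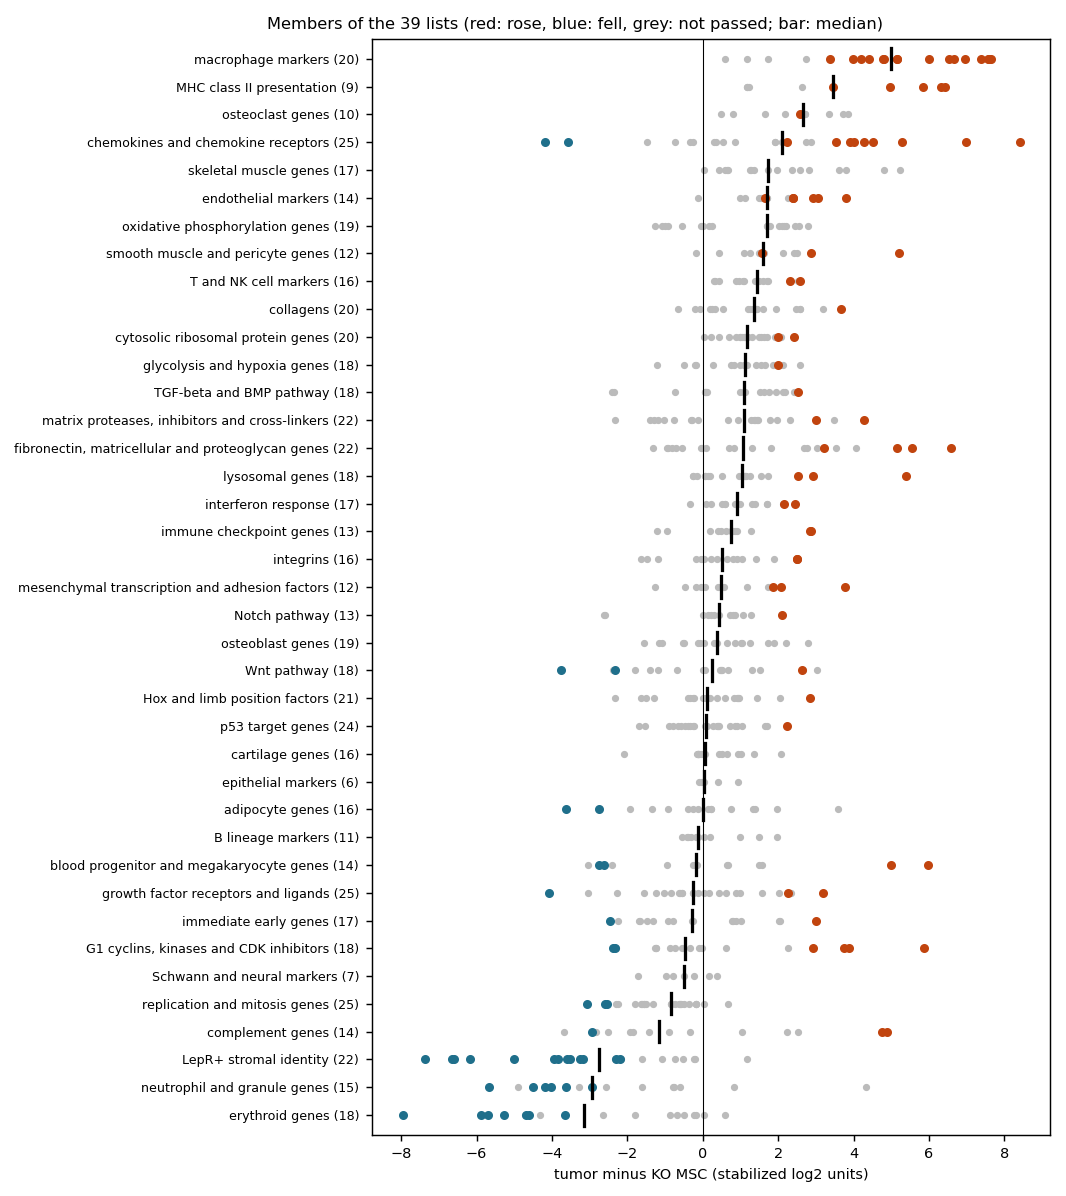
Change from the libraries labelled KO_MSC to tumors (horizontal, stabilized log2 units) for the tested members of 39 gene lists, 1 row a list with the number tested in brackets. Red members rose, blue members fell, grey members did not pass, and the black bar is the median of the list. Macrophage markers lie farthest to the right with a median of 4.98, and erythroid, neutrophil and LepR+ stromal genes farthest to the left with medians of -3.15, -2.94 and -2.76.

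Regulators of the G1 phase changed in both directions. D-type cyclins bind CDK4 and CDK6 to start the cell cycle, and cyclin E then acts with CDK2. Of 18 genes, 4 rose and 2 fell, all 6 also with the set term, while 2.7% of all genes were called higher and 2.28% lower. Ccnd1, which encodes cyclin D1, had 5.78, 7.74 and 5.55 in the libraries labelled KO_MSC against 10.59 to 13.5 in tumors (median 12.57). The groups were well apart, and the change was 5.87 ± 0.71 (adjusted p = 0.00334, and 0.0383 without KO_MSC 1). Ccnd2 rose by 2.92 ± 0.49 (0.00913), with 8.25, 9.46 and 9.2 against 11.19 to 12.84. Ccnd3, by contrast, had 13.6, 12.69 and 11.42 against 9.48 to 10.86 and changed by -2.39 ± 0.5 (0.0221). Ccne1, which encodes cyclin E1, fell by 2.34 ± 0.48 (0.0209).

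The inhibitors of CDK4 and CDK6 encoded next to each other on chromosome 4 rose too. Cdkn2a, which encodes p16INK4A and ARF, was at the floor in all 3 libraries labelled KO_MSC (4.27, 5.23 and 5.23) and had 6.92 to 10.43 in the 6 tumors (median 8.91). Tumor 2 was highest and tumors 1 and 3 lowest, and the test passed with an adjusted p of 0.0241. Cdkn2b, which encodes p15INK4B, had 4.9, 6.53 and 5.26 against 7.08 to 11.35 and changed by 3.89 ± 0.86 (0.0264). A value per gene does not separate p16INK4A from ARF. Without KO_MSC 1, Ccnd1 was the only member of the list that passed.

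Cdkn1a, which encodes p21 and is a direct target of p53, had 7.39, 9.38 and 11.4 against 11.15 to 12.58 and did not pass (2.26 ± 0.71, adjusted p = 0.0838). KO_MSC 3, the library with low Trp53, had the highest Cdkn1a of its group. Of 24 p53 target genes, Plk2 alone rose (2.23 ± 0.52, 0.0345, and 0.155 without KO_MSC 1) and none fell, a count near the share of all genes called higher (2.7%). The median change was 0.08 and turned to -0.22 without KO_MSC 3. Mdm2, the p53 ubiquitin ligase, had 9.29, 9.01 and 8.63 against 8.17 to 9.24 (-0.33 ± 0.35, 0.579).

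Of 25 replication and mitosis genes, none rose and 3 fell, and 23 changes were negative, with a median of -0.85. For comparison, 2.28% of all genes were called lower and 47.3% had a negative change. Mcm5, a subunit of the replicative helicase, had 13.18, 12.07 and 10.3 against 7.65 to 9.83 and changed by -3.08 ± 0.62 (adjusted p = 0.02). Rrm2, a subunit of ribonucleotide reductase, fell by 2.54 ± 0.56 (0.0263). Cdc6 fell by 2.59 but was not called with the set term. The list's mean was 11.45, 10.88 and 8.99 in KO_MSC 1, 2 and 3 and 8.69 to 9.88 in tumors, so KO_MSC 3 lay within the range of the tumors. The median change was -2.25 without KO_MSC 3 and -0.48 without KO_MSC 1, where none of the 25 passed. Erythroid genes, listed above, were highest in the same libraries, KO_MSC 1 and 2, and their part in this difference was not tested. Mki67 had 9.17, 8.07 and 7.16 against 7.46 to 8.85 and a change of 0.04 ± 0.52 (0.971).

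The 4 signalling lists had 1 to 3 members each that passed, where 2.7% of all genes were called higher and 2.28% lower. Among 25 growth factor receptors and ligands, Pdgfc (3.2 ± 0.6, adjusted p = 0.0145) and Pdgfb (2.26 ± 0.57, 0.0444), ligands of the PDGF receptors, rose and Igfbp4 fell. Pdgfb was not called with the set term. Among 18 genes of the TGF-beta and BMP pathway, Tgfb2 rose (2.52 ± 0.5, 0.0188), with 5.92, 4.85 and 4.85 against 6.47 to 8.24. In the Wnt pathway, 3 of 18 changed. The secreted Wnt antagonist gene Sfrp4 had 12.95, 12.39 and 11.22 against 6.64 to 9.92 (-3.77 ± 0.7, 0.0141), the receptor gene Fzd1 fell by 2.33 ± 0.59 (0.0453), and Wnt5a rose by 2.63 ± 0.68 (0.0496) without being called with the set term. In the Notch pathway the ligand gene Dll4, made by sprouting endothelium, rose by 2.1 ± 0.48 (0.0311) as the single call among 13. None of these 4 lists had a call without KO_MSC 1.

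Among 17 immediate early genes, Klf4 rose (3.01 ± 0.61, adjusted p = 0.02) and Fosb fell (-2.47 ± 0.56, 0.0292), and neither passed without KO_MSC 1 (0.129 and 0.119). The whole list had a median change of -0.29, and over all genes 2.7% were called higher and 2.28% lower.

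The metabolic lists had 0 to 3 members each that passed, where 2.7% of all genes were called higher. Of 18 lysosomal genes, 3 rose: the proton pump subunit gene Atp6v0c (10.37, 6.54 and 6.75 against 12.36 to 14.51, change 5.4 ± 0.84, adjusted p = 0.00647) and the protease genes Ctsh (2.92) and Lgmn (2.53). Atp6v0c was the only one of them that passed without KO_MSC 1 (0.00667). Hk2, a hexokinase that starts glycolysis, rose by 2.0 ± 0.49 (0.0392, and 0.198 without KO_MSC 1) as the single call of 18 glycolysis and hypoxia genes. None of 19 oxidative phosphorylation genes passed (median change 1.69). All 20 ribosomal protein genes had a positive change (median 1.16) and 2 passed, among them Rpl19 (1.99, adjusted p = 0.142 without KO_MSC 1). The medians of the oxidative, ribosomal and lysosomal lists were 1.69, 1.16 and 1.03, and 0.53, 0.4 and 0.27 with quantile scaling. Without KO_MSC 1 they were 0.89, 0.95 and 0.37, and in set 2 they were 0.71, 1.05 and 0.06. Ribosomal protein genes have many near-identical pseudogene copies, to which reads may have been assigned.

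The 6 tumors differed strongly among themselves in differentiation genes. Osteoblast genes had no call (0 of 19), and the tumors lay on both sides of the sorted libraries. The mean level of the list was 11.29, 9.96 and 10.38 in tumors 1, 3 and 6 and 6.6, 7.01 and 7.45 in tumors 2, 4 and 5. Ibsp, which encodes the bone sialoprotein of mineralizing cells, had 19.26, 8.79, 16.22, 8.56, 9.35 and 16 in tumors 1 to 6. Bglap, which encodes the bone hormone osteocalcin, had 16.84, 8.51, 15.65, 7.06, 11.31 and 14.94. The same 3 tumors were highest for both genes. Bglap has near-identical neighbours, Bglap2 and Bglap3, so reads could be split between them. Alpl, the alkaline phosphatase of bone, ranged from 4.76 in tumor 2 to 14.89 in tumor 1. The libraries labelled KO_MSC had 12.63, 15.74 and 13.94 for Ibsp and 8.74, 14.79 and 11.08 for Bglap, between the extremes of the tumors. Runx2, the transcription factor that starts bone formation, varied less (7.13 to 11.08 in tumors against 8.32, 9.41 and 9.63).

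Osteoclast genes, which mark the macrophage-derived cells that resorb bone, were highest in tumors 1 and 3, with list means of 10.55 and 10.74, and lowest in tumor 2 (6.24). The libraries labelled KO_MSC had 5.19, 7.16 and 6.96. Of 10 genes, Tnfrsf11a, the receptor RANK, rose (2.59 ± 0.58, adjusted p = 0.0288, and 0.166 without KO_MSC 1), where 2.7% of all genes were called higher. All 10 changes were positive, against 52.7% of changes over all genes. Ctsk, the collagen-degrading protease of osteoclasts, had 15.69, 10.87, 17.77, 11.87, 14.28 and 13.06 in tumors 1 to 6.

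Skeletal muscle genes were highest in tumor 4 (list mean 10.95) and next highest in tumor 3 (8.99), with 4.93 to 7.29 in the other tumors. Acta1, the actin of skeletal muscle, had 9.94, 6.67, 14.04, 19.28, 8.75 and 7.1 in tumors 1 to 6 against 4.56, 6.9 and 5.74 in the libraries labelled KO_MSC. Ckm, the muscle creatine kinase, had 8.41, 5.11, 10.67, 16.3, 6.69 and 6.35. The contractile genes Tnnc2 and Atp2a1 had 16.44 and 15.11 in tumor 4, and 12.37 and 9.5 in tumor 3. None of the 17 muscle genes passed, although all 17 changes were positive (median 1.73), against 52.7% of changes over all genes. The muscle transcription factor genes Myod1 and Myog had changes of 0.66 and 0.59. Whether this RNA came from tumor cells or from adjoining muscle was not tested.

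Crabp1, a retinoic acid binding protein of embryonic and fibroblastic cells, was highest in tumor 2 at 17.33. It also stood at 13.04 in tumor 4 and 10.55 in tumor 5, with 6.73, 4.52 and 5.65 in tumors 1, 3 and 6. The libraries labelled KO_MSC had 5.08, 6.18 and 7.99. Tumor 2 had the lowest value of Ibsp after tumor 4 and the lowest means of the osteoblast, osteoclast, cartilage and muscle lists. Cartilage genes had no member that passed (0 of 16, median change 0.05). Dcn, which encodes the fibroblast proteoglycan decorin, was highest in tumor 2 (15.84) and lowest in tumor 6 (8.66). Rps23 was at the floor in tumors 2, 4 and 6 and in KO_MSC 1, and at 10.17 to 13.77 in the other 5 libraries. For a ribosomal protein gene that every cell needs, such a floor means only that the gene is listed without reads there.

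**Figure D5:**
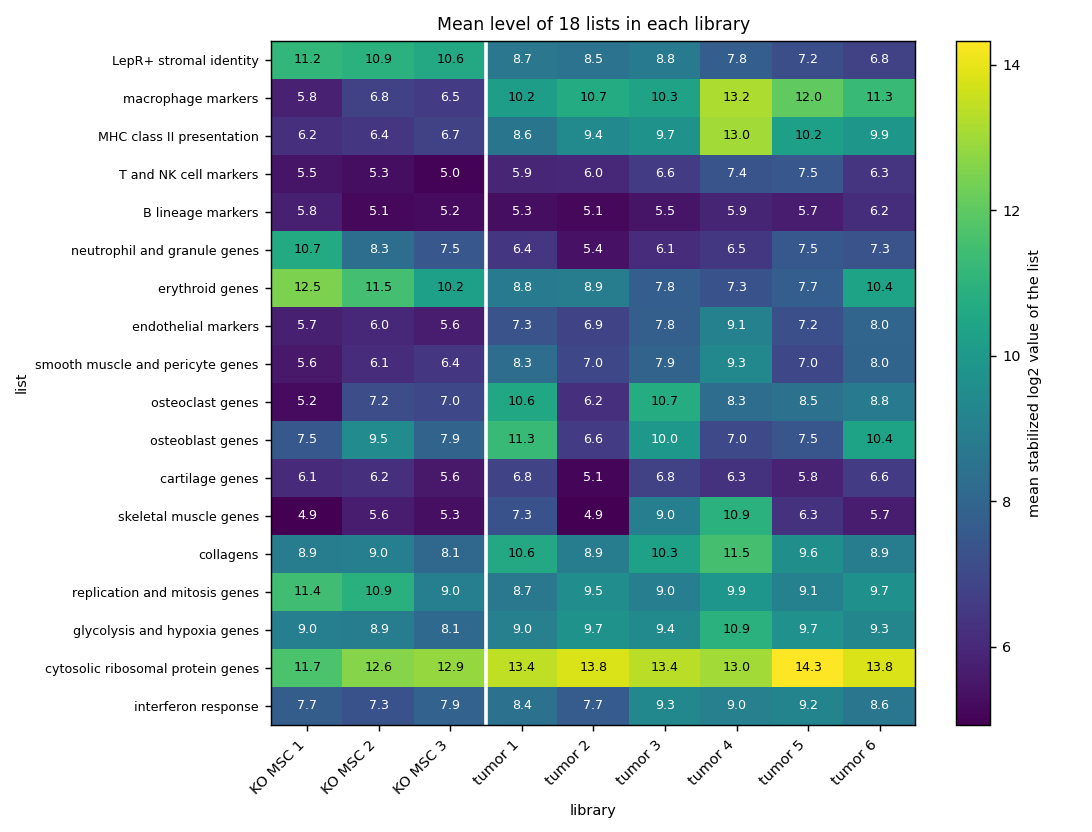
Mean stabilized log2 value of 18 gene lists (rows) in the 3 libraries labelled KO_MSC and the 6 tumors (columns, divided by the white line), with the value in each cell and the colour scale on the right. The LepR+ stromal row drops from 10.61 or more to 8.78 or less at the line, the macrophage row rises from 6.77 or less to 10.18 or more, and the osteoblast and skeletal muscle rows differ mainly between tumors.

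Some genes were at the floor throughout a group. Of 7455 tested genes whose floor was known, 57 were at the floor in all 3 libraries labelled KO_MSC and above it in all 6 tumors, of which 25 were called higher and 32 did not pass. Besides Cdkn2a, Hoxb7, Actg2 and Ccl12, they included the T cell gene Cd8a and the dendritic cell integrin gene Itgax (5.25 to 6.28 in tumors, not passed). Conversely, 44 were above the floor in all 3 libraries labelled KO_MSC and at it in all 6 tumors, of which 33 were called lower and 11 did not pass. Kng1, which encodes kininogen, the precursor of bradykinin, had 11.57, 10.55 and 9.9 and was at the floor in every tumor (5.95 in set 1 and 3.55 in set 2). Edar, a receptor of the TNF family, had 7.62, 6.11 and 7.84 and was at its floor in every tumor. The count of 57 rests on KO_MSC 1. In KO_MSC 2 and 3, 794 genes were at the floor while above it in all 6 tumors, and 737 of them were above the floor in KO_MSC 1. No such check was made for the count of 44.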

How the data were processed

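Bulk RNA was measured in 12 mouse libraries, of which the 9 labelled KO_MSC and KO_Tumor were compared. Per the labels' protocols, SMART-Seq v4 made the cDNA and an unstranded kit the libraries. The submitters' processing notes name build mm10, TopHat2 2.0.13, Cufflinks 2.2.1 and Cuffdiff. They give no role or order for these tools.

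The authors deposited variance-stabilized, batch-adjusted log2 values, which served as the measurements. The authors' second deposited table bears the title of normalized counts. The authors' deposited entries are a score: each, multiplied by 1 factor a library, equals the rounded 100-fold log2 value (100% of its 18949 genes). It served as a filter and an alternative. No reads can be recovered, so depth is unknown and no counting error is given. Floors, low values shared exactly between libraries and taken as genes without reads, mirrored each other around 4.7516 in 100% of 9803 genes (tolerance 1e-05).

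Each of the 18948 genes that varied was fitted with limma 3.58.1 in R 4.3.3 (two-sided, lmFit and eBayes with a trend, without covariates or block). Benjamini-Hochberg adjustment ran over all of them and an adjusted p under 0.05 passed. Since earlier adjustment of the table is not accounted for, p-values can be too small. SE is limma's moderated standard error. The fit was tested on simulated data with independent normal noise. These data held no sets, shared floors or earlier adjustment, so the effect of those on the p-values was not tested.

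Members, lists (39, with 671 genes, 657 tested) and tests were chosen with earlier results of these data known. Named genes were Trp53, the 12 largest changes in each direction that passed with and without a term for the set, with a group mean of at least 6.64 (log2 of 100) and no overlap, up to 4 members a list by adjusted p, and the 12 genes with the largest SD among tumors that reached 8.97 (log2 of 500). Other list members, and Ptprc and Itgax, were named after their values were seen. Gene positions come from the GENCODE vM21 annotation of mm10. Alternatives covered the set term, each set alone, the replicate block, array weights, each library left out, scalings, filters and the trend. A few genes are not reported here.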

Additional observations from a re-analysis of the deposited data

Results flagged for a closer look

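In 76 groups of 6 tumors examined (named genes and list means), 4 had a highest tumor far from the others by Dixon's criterion, and chance flags about 1 in 20 groups. Ifi27l2a, an interferon-induced gene, was highest in tumor 5 at 16.3, with the other tumors at 10.83 to 12.81. Car4, a membrane-bound carbonic anhydrase, was highest in tumor 5 at 15.22, with the other tumors at 4.31 to 7.84. The mean of MHC class II presentation genes was highest in tumor 4 at 13.03, with the other tumors at 8.57 to 10.24. The mean of glycolysis and hypoxia genes was highest in tumor 4 at 10.94, with the other tumors at 9.02 to 9.72.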

How the results depend on the processing

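All 944 called changes, and those of the 24 genes with the largest changes, kept their direction under every alternative in which their genes were tested. The choice of these genes from the same libraries favours this. The number of calls did not hold. Against 512 higher and 432 lower, leaving out a library gave 41 to 704 higher and 72 to 923 lower. Set 2 alone gave 120 and 109, and set 1 alone, with 1 library labelled KO_MSC whose spread was assumed to be that of the tumors, gave 2867 lower. Array weights gave 1301 and 1202, in a fit that leaned on KO_MSC 2. The weights of KO_MSC 1, 2 and 3 were 0.599, 2.933 and 0.415. Quantile scaling gave 1024 lower, and a minimum mean of 6.64 gave 805 higher. The set term without KO_MSC 3, chosen after seeing the data, gave 661 lower, and undoing the shift between the sets, also chosen then, gave 565 and 448. The replicate block, with the replicate number as a term and only tumors 1 to 3, gave 27 and 20 calls. Whether equal numbers mark shared animals is unstated. Deviations of equally numbered libraries correlated at -0.218, -0.068 and 0.217, and so few libraries can neither show nor exclude a pairing. Of the 39 list medians, 30 moved by less than the SD of the list mean among the 6 tumors in set 2 alone. The number was 26 in set 1 alone, 34 without KO_MSC 1, 35 with quantile scaling and 29 with the minimum mean. The scatter among libraries labelled KO_MSC was not part of that SD, which is wide where tumors differ. That minimum leaves fewer members to test, and it moved the progenitor and megakaryocyte list from -0.17 to 4.98 and the B lineage list from -0.13 to 1.97. Medians near 0 changed sign under several alternatives. The osteoblast list went from 0.39 to -0.44 in set 2 alone, a move that still counted as less than that SD. Depth is unknown, and the floor hides changes among genes with few reads.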
